A study of Mus musculus with 14 samples.

Results

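The expression of 10 genes of the TNF, IL-6 and NF-kB circuit was measured in macrophages isolated from 4T1 mouse mammary tumours. TNF (tumour necrosis factor) and IL-6 (interleukin 6) are inflammatory cytokines, and NF-kB is a transcription factor that drives both genes. The 10 genes were Tnf and Il6, which encode the cytokines, the TNF receptor gene Tnfrsf1b, and the inhibitor genes Nfkbia and Tnfaip3. The others were Nfkbiz, a relative of Nfkbia, and the subunit genes Nfkb1, Nfkb2, Rel and Relb. The set was named gene by gene from the pathway, with earlier results of these data known. All 10 of the 10 genes were found among the 24556 genes of the expression table, and all 10 passed the filter on low values (an unlogged value of at least 10 in at least 3 libraries), as did 11886 genes in all.

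RNA was sequenced from F4/80-positive cells, collected from the tumours with magnetic beads over a pair of columns in series. The tumours had grown in Balb/c mice from 4T1 cells, a mammary carcinoma line, injected into the fat pad. The tumour cells had been exposed in culture, before injection, to 5 µM GSK269962A, a small-molecule inhibitor, or to its vehicle DMSO, in each case over 5 days. Macrophages were collected on day 8 (3 DMSO and 3 GSK libraries) or day 14 (4 DMSO and 4 GSK libraries) after injection. "DMSO" and "GSK" below refer to this pre-treatment of the tumour cells, and the macrophages themselves were not exposed in culture. The labels give no genotype or age for the host mice. Libraries are numbered within a group with no statement that separate mice gave them, and p-values therefore measure the spread between these libraries, which may be technical. Values are the authors' log2-scale expression values. All 8 macrophage markers examined were kept, with Adgre1, which encodes F4/80, at log2 values of 8.93 to 10.3 and Csf1r at 11.2 to 12.5. No counts were used here, which leaves sequencing depth unknown.

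In resting macrophages NF-kB dimers are held in the cytoplasm by inhibitors of the I-kappa-B family. Signals from TNF receptors or from pattern-recognition receptors lead to degradation of the inhibitor, and the freed dimers switch on cytokine genes together with the genes of their own inhibitors, so that the response limits itself. Macrophages are a main source of TNF and a source of IL-6 in tumours, and both cytokines are known to act on tumour cells and on other immune cells.

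The promoters of 7 of the 10 genes were matched in RefSeq's table for GRCm38.p6. The windows of Tnf and Il6 are shown because these were the genes that passed a test, that of Nfkbia because it was the most abundant of the 10 transcripts, and that of Nfkb2 because 3 matches fell in a short stretch. Each reads 5′ to 3′ on the gene's strand, and capitals mark matches to the kappa-B consensus decamer, searched on both strands with overlaps allowed.
Tnf, chr17:35201958-35202257, minus strand: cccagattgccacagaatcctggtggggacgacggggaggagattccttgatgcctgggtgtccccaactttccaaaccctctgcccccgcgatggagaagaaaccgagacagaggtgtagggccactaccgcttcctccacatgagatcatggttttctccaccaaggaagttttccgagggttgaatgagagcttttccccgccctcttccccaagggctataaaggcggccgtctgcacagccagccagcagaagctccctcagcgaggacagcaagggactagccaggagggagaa
Il6, chr5:30012864-30013163, plus strand: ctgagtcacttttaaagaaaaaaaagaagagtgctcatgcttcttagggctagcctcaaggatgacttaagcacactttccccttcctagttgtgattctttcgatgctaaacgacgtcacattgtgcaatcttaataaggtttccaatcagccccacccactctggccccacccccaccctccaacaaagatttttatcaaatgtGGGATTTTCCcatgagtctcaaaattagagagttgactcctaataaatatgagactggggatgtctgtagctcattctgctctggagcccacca
Nfkbia, chr12:55492598-55492897, minus strand: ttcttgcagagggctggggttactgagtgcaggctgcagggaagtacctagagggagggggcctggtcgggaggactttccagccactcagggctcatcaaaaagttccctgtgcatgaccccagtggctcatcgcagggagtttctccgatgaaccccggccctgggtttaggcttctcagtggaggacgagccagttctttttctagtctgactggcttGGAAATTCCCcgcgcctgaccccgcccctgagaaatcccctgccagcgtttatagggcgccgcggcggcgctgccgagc
Nfkb2, chr19:46304487-46304786, plus strand: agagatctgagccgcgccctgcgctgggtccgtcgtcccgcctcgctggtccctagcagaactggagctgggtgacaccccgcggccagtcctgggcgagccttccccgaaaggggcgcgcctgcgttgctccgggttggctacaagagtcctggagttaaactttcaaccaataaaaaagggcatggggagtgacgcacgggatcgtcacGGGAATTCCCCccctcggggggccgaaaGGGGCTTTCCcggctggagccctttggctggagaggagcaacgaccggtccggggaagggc

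The Il6 window held 1 match, GGGATTTTCC, whose first base lay at position -44 from the start site. The Nfkbia window held 1, GGAAATTCCC, beginning at -29. In the Nfkb2 window GGGAATTCCC began at -39 and overlapped GGAATTCCCC at -38, and GGGGCTTTCC began at -11. Tnfaip3 and Rel also held matches, while none lay in the windows of Tnf and Tnfrsf1b. Each window covers only the stretch next to a start site, so sites farther away were not searched. The further windows of Nfkb2, at other start sites and not shown, held matches as well, and 1 of the Tnfaip3 windows held 0. In all, 5 of 7 genes with a promoter had a match, beside 9.55% of all 27025 genes in the table. A match describes the letters of the window only.

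Cytokine transcripts often carry AU-rich elements in the 3′ untranslated region, through which mRNA decay factors shorten their life. The nonamer TTATTTATT was counted in the 3′ untranslated regions of the GENCODE M21 annotation of GRCm38. Tnf, on the minus strand of chromosome 17, held 5 copies in 764 bases, overlapping ones counted, the highest number among the 10 genes, and a site is shown with the nonamers in capitals.
Tnf, AU-rich site: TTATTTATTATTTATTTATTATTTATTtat

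Tnfaip3, Nfkbia and Rel held 1 nonamer each, and the other 6 genes, Il6 among them, held 0. That makes 4 of 10 genes with a nonamer, beside 8.35% of the 10491 kept genes with such a region. Only Tnf of the 10 had more than 1 copy, as did 1.93% of those genes.

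Levels of the 10 transcripts were spread widely. Per kilobase of exon, on the unlogged scale, Nfkbia was highest with a mean of 12300 over all libraries, above 99.7% of kept genes. Tnfrsf1b followed at 389, then Tnf at 216.4, Nfkb1 at 162, Nfkbiz at 111, Nfkb2 at 95.53 and Relb at 83.26. Rel at 38.56, Tnfaip3 at 25.34 and Il6 at 14.83 were lowest, so the transcript of the IL-6 cytokine was the scarcest of the set. The length used joins all annotated exons of a gene, 12061 bases for Nfkb1, and the order depends on it. By mean log2 value Nfkb1 (10.9) stood above Tnfrsf1b (10.5) and Tnf (8.28). Genes also differed in how tightly the libraries of 1 group agreed. The within-group SD was 0.491 on the log2 scale for Tnfaip3, above that of 96.5% of kept genes, and 0.135 for Relb, above 5.54% of them, beside a median of 0.235.

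**Figure D1:**
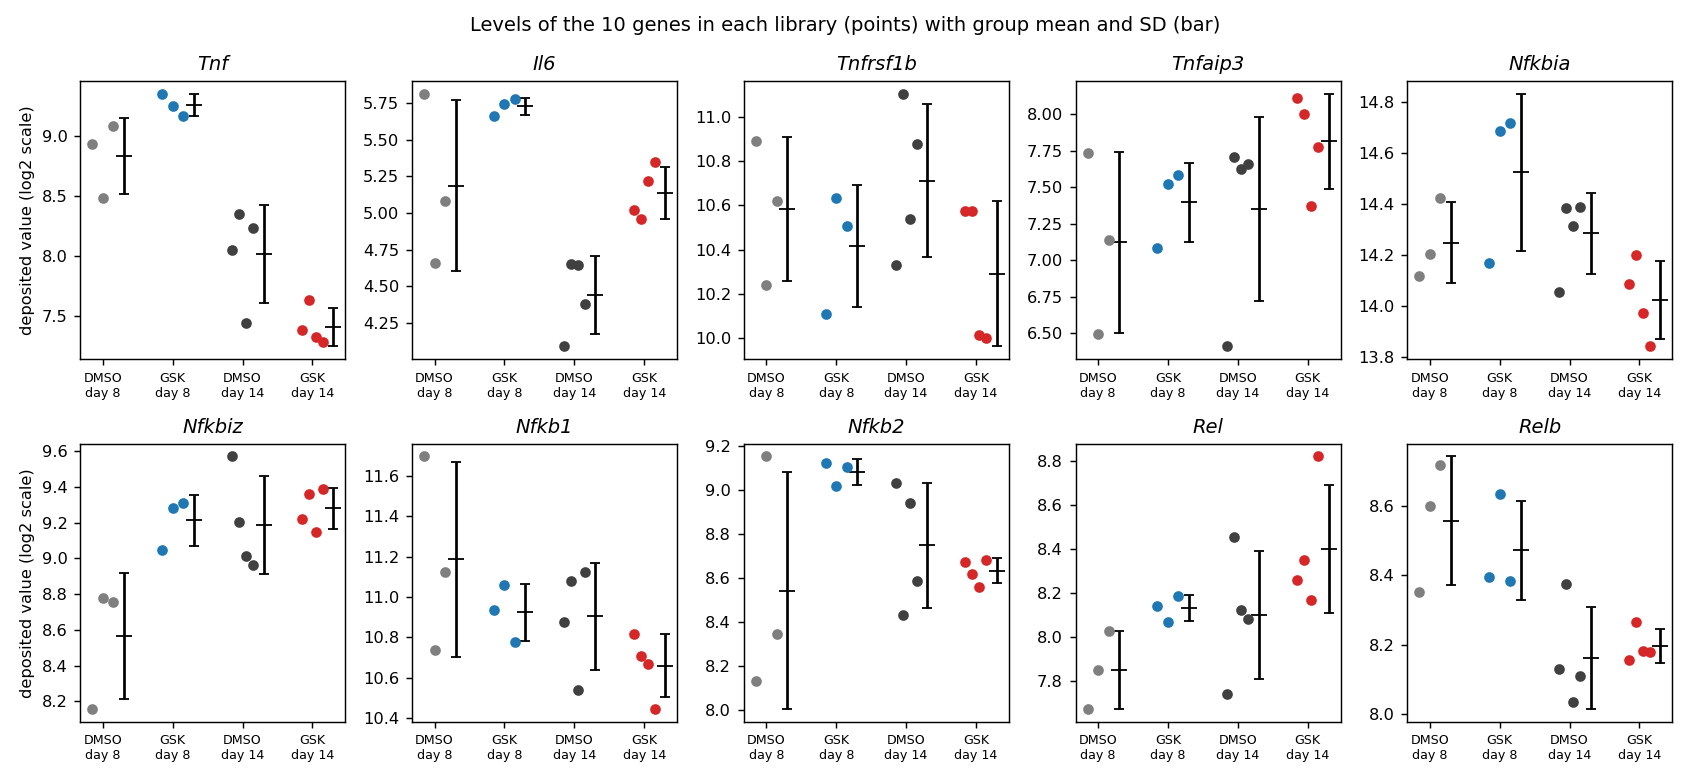
Deposited log2-scale value (vertical axis) of each of the 10 genes in every library (points, in the order of their numbers) of the 4 groups (horizontal axis), with the group mean and SD as a bar beside the points. Tnf was below 7.7 in all 4 GSK day 14 libraries and above 9.1 in all 3 GSK day 8 libraries, and Il6 was higher in every GSK than in every DMSO library of day 14.

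Tnf encodes the inflammatory cytokine TNF, and it had the largest change of the set. On day 8 the deposited log2 values were 8.93, 8.48 and 9.08 in the DMSO libraries and 9.35, 9.24 and 9.16 in the GSK libraries. On day 14 they were 8.05, 8.35, 7.44 and 8.23 in DMSO and 7.38, 7.64, 7.33 and 7.29 in GSK. GSK libraries were thus the higher group on day 8, without overlap, and the lower group on day 14, where DMSO library 3 fell among them. Within the GSK tumours Tnf fell by 1.84 from day 8 to day 14 (SE 0.198, limma adjusted p = 0.000264), which is 3.59-fold lower on this scale. The groups did not overlap, and the change passed with any 1 of the 14 libraries left out (adjusted p from 2.92e-05 to 0.00332). In bulk samples such as these, fewer cells of a type and less RNA per cell cannot be told apart.

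In DMSO tumours the Tnf difference over the same days was -0.81 (SE 0.198) and did not pass the test (limma adjusted p = 0.0698), although the groups did not overlap. It passed when DMSO day 8 library 2 was left out, with -0.99 and an adjusted p of 0.028 in limma. The pre-treatment difference on day 14 passed by little. Tnf was lower in GSK by 0.61 (log2 change -0.61, SE 0.184, limma adjusted p = 0.0438), 1.53-fold, with overlapping groups. On day 8 the difference was 0.42 in the other direction (SE 0.212, adjusted p = 0.337 in limma). The difference between these differences was -1.03 (SE 0.28). Its unadjusted p was 0.00199, and its limma adjusted p over all kept genes was 0.504, so a change of the GSK effect between the days was not shown at the threshold.

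The day 14 call for Tnf lay close to the threshold and was not stable. It was lost without library 1, 2 or 4 of DMSO day 14 or any 1 of the 4 GSK day 14 libraries. It was also lost without library 2 or 3 of GSK day 8, where the log2 change stayed at -0.61. Those libraries bear on the shared spread and the adjustment, not on the day 14 means. Log2 changes in these cases lay between -0.69 and -0.50, with limma adjusted p between 0.0512 and 0.144. Without DMSO day 14 library 3, which overlapped the GSK group, the change was -0.80 (limma adjusted p = 0.00735). The call also moved with a split among the libraries. AY036118 and Gm42418, overlapping genes at a ribosomal RNA locus, were high in turn, the former in 9 libraries and the latter in 5, and all 4 GSK day 14 libraries were of the first kind. Among the AY036118-high libraries alone, Tnf on day 14 was 8.05 and 7.44 in DMSO, and the GSK difference was -0.34 with a limma adjusted p of 0.233. No GSK day 14 library was of the other kind, so that kind gives no value. The fall from day 8 to day 14 in GSK tumours was -1.80 among the AY036118-high libraries, with a limma adjusted p of 0.00103.

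Il6 encodes IL-6, which signals through the gp130 receptor chain and STAT3. On day 8 its log2 values were 5.81, 4.66 and 5.08 in the DMSO libraries and 5.66, 5.74 and 5.78 in the GSK libraries. On day 14 they were 4.09, 4.65, 4.64 and 4.38 in DMSO and 5.02, 4.96, 5.22 and 5.35 in GSK. The GSK libraries lay close together on day 8, inside the wide DMSO range, and on day 14 all 4 lay above all 4 DMSO libraries. Averaged over both days, Il6 rose by 0.62 with GSK pre-treatment (SE 0.157, limma adjusted p = 0.0174), which is 1.54-fold. This call held with any 1 library left out (adjusted p from 0.00341 to 0.0478). Among the AY036118-high libraries alone the difference was 0.94 with a limma adjusted p of 0.00637, but DMSO day 8 then holds 1 library, the one with the lowest Il6 value of its group (4.66), and the fit gives that lone library the spread of the remaining groups.

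By day, the Il6 difference was 0.54 on day 8 (SE 0.237, limma adjusted p = 0.27) and 0.70 on day 14 (SE 0.206, limma adjusted p = 0.0413). The day 14 call was lost without library 2 of GSK day 8, where the change itself stayed at 0.70. It was also lost without library 1, 2 or 4 of DMSO day 14 or any 1 of the 4 GSK day 14 libraries. Log2 changes in these cases lay between 0.58 and 0.77, with limma adjusted p between 0.0549 and 0.146. Among the AY036118-high libraries the day 14 difference was 0.77, with an adjusted p of 0.035 in limma. With no filter on low values both day 14 calls were lost (limma adjusted p = 0.101 for Tnf and 0.0936 for Il6), as they were with the kind of library as a term (limma adjusted p = 0.167 and 0.0518). The difference between the days was 0.15 (SE 0.314, limma adjusted p = 0.903). From day 8 to day 14 Il6 was lower by 0.74 in DMSO tumours (log2 change -0.74, SE 0.222) and by 0.59 in GSK tumours (log2 change -0.59, SE 0.222), in both without overlap and in neither past the test (limma adjusted p = 0.126 and 0.111). The DMSO change passed without DMSO day 8 library 2, at -1.01 with a limma adjusted p of 0.028. The GSK change passed without DMSO day 8 library 1, with a limma adjusted p of 0.0382. That library is outside the GSK comparison, so the change stayed at -0.59 and only the shared spread and the adjustment moved. On day 14 the cytokine genes therefore differed from the DMSO group in opposite directions, Tnf lower and Il6 higher.

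**Figure D2:**
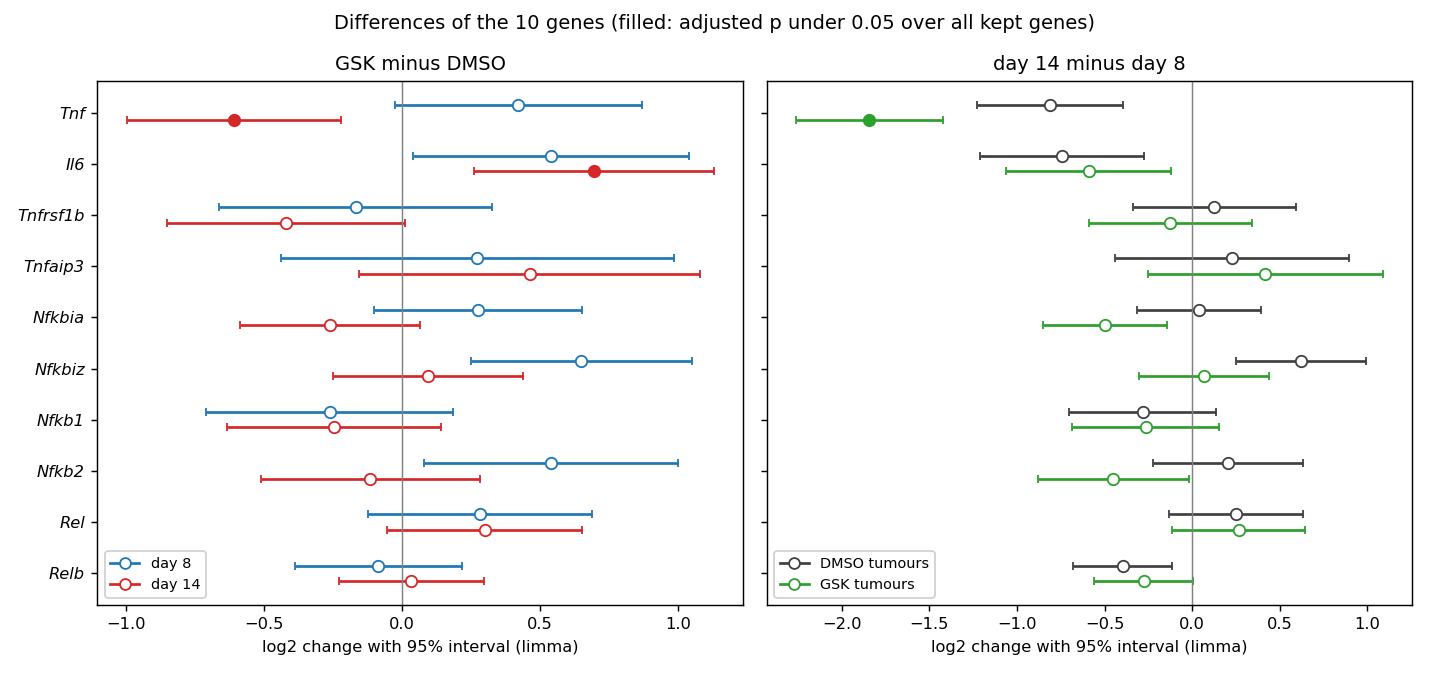
Log2 change of each of the 10 genes (horizontal axis) with its 95% interval from the limma fit, for GSK minus DMSO on each day (left) and for day 14 minus day 8 in each pre-treatment (right); filled points had an adjusted p under 0.05 over all kept genes. The filled points are Tnf at -0.61 and Il6 at 0.70 on day 14, and Tnf at -1.84 between the days in GSK tumours.

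Tnfrsf1b encodes TNF receptor 2, the TNF receptor found mainly on immune and endothelial cells. Its log2 values were 10.89, 10.24 and 10.62 (DMSO) and 10.11, 10.63 and 10.51 (GSK) on day 8, and 10.33, 11.11, 10.54 and 10.88 (DMSO) and 10.58, 10.57, 10.01 and 10.001 (GSK) on day 14. The groups overlapped on both days. The day 14 difference was -0.42 (SE 0.203, 95% interval -0.851 to 0.00901), which did not pass (limma adjusted p = 0.192).

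Nfkbia encodes I-kappa-B-alpha, the inhibitor that NF-kB itself induces. It varied less within groups (SD 0.197) than Tnfaip3 (0.491) and Nfkbiz (0.237). Its log2 values were 14.12, 14.20 and 14.42 (DMSO) and 14.17, 14.68 and 14.72 (GSK) on day 8. On day 14 they were 14.05, 14.38, 14.31 and 14.39 (DMSO) and 14.08, 14.20, 13.97 and 13.84 (GSK). The lowest of the 14 values was in a GSK day 14 library and the highest in a GSK day 8 library. The GSK change between the days was -0.50 (SE 0.167) and did not pass (limma adjusted p = 0.076). The same change was -0.68 among the AY036118-high libraries, with a limma adjusted p of 0.0421. That subset leaves out GSK day 8 library 1 (14.17), the only library of its group that overlapped GSK day 14. It keeps 2 of the 3, at 14.68 and 14.72.

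Tnfaip3 encodes A20, a ubiquitin-editing enzyme that ends signalling from TNF and Toll-like receptors. Its log2 values were 7.73, 6.50 and 7.14 (DMSO) and 7.08, 7.52 and 7.58 (GSK) on day 8, and 6.41, 7.71, 7.63 and 7.66 (DMSO) and 8.11, 8.00, 7.37 and 7.78 (GSK) on day 14. DMSO day 14 library 1 stood well below the rest of its group, and DMSO day 8 library 2 was the lowest of an evenly spread group. These libraries also had the lowest summed unlogged level of 12 immediate-early and tissue-dissociation genes in their groups, at 18900 beside 33800 and 27400, and at 19300 beside 30700 to 34400. The part of that response in the Tnfaip3 values was not tested. No Tnfaip3 comparison passed, and the day 14 difference of 0.46 had a 95% interval from -0.155 to 1.08. The mean over both days was 0.37 (limma adjusted p = 0.282). Among the AY036118-high libraries alone it was 0.92 with a limma adjusted p of 0.0387, a value that sets the GSK libraries against 1 DMSO library on day 8, at 6.50, and 2 on day 14, 1 of them at 6.41.

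Nfkbiz encodes I-kappa-B-zeta, a nuclear member of the family that is needed for Il6 induction in mouse macrophages. On day 8 its log2 values were 8.16, 8.78 and 8.76 in DMSO and 9.05, 9.28 and 9.31 in GSK, which did not overlap. On day 14 they were 9.57, 9.20, 9.01 and 8.96 in DMSO and 9.22, 9.36, 9.14 and 9.39 in GSK, which did. The day 8 difference of 0.65 (SE 0.188, limma adjusted p = 0.118) and the mean over both days of 0.37 (SE 0.124, limma adjusted p = 0.0558) did not pass. The mean passed when DMSO day 8 library 2 or 3, GSK day 8 library 1 or DMSO day 14 library 1 was left out, with values from 0.41 to 0.44 and limma adjusted p from 0.0219 to 0.0493.

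Among the subunits, Nfkb1 encodes the precursor of p50, a DNA-binding subunit of the classical dimer. Its log2 values were 11.70, 10.74 and 11.12 (DMSO) and 10.94, 11.06 and 10.77 (GSK) on day 8, and 10.87, 11.08, 10.54 and 11.12 (DMSO) and 10.82, 10.70, 10.67 and 10.44 (GSK) on day 14. The groups overlapped on both days, and no difference passed.

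Nfkb2 encodes the precursor of p52, which belongs to the alternative pathway. Its values were 8.13, 9.15 and 8.34 (DMSO) and 9.12, 9.02 and 9.10 (GSK) on day 8, and 9.03, 8.43, 8.94 and 8.59 (DMSO) and 8.67, 8.62, 8.56 and 8.68 (GSK) on day 14. DMSO day 8 library 2 stood with the GSK libraries. Without it the day 8 difference was 0.84 (limma adjusted p = 0.0359), against 0.54 with all libraries (limma adjusted p = 0.24). The mean over both days was then 0.36 (limma adjusted p = 0.0402), against 0.21 (limma adjusted p = 0.342). The library left out was the 1 AY036118-high library of DMSO day 8. Among the AY036118-high libraries alone, which keep it, the day 8 difference was -0.0923 and the mean over both days was -0.22. Nfkb2 overlaps Psd and AC114539.1 on the opposite strand and has 16.3% of its 31-base words in common with at least 1 other gene, so its values are uncertain. The share was 2.08% at most for the other 9, of which Nfkb1 overlaps Gm43430 on the same strand.

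Rel encodes c-Rel, a subunit with prominent roles in lymphocytes and in myeloid cytokine genes. Its log2 values were 7.67, 7.85 and 8.03 (DMSO) and 8.14, 8.07 and 8.19 (GSK) on day 8, and 7.74, 8.46, 8.12 and 8.09 (DMSO) and 8.26, 8.35, 8.17 and 8.82 (GSK) on day 14. The GSK libraries were all higher on day 8, and the differences of 0.28 (SE 0.192) and 0.30 (SE 0.167) were alike in size and did not pass (limma adjusted p = 0.494 and 0.262).

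Relb encodes the partner of p52 in the alternative pathway. Its values were 8.35, 8.60 and 8.72 (DMSO) and 8.40, 8.64 and 8.38 (GSK) on day 8, and 8.13, 8.37, 8.03 and 8.11 (DMSO) and 8.15, 8.27, 8.18 and 8.18 (GSK) on day 14. The pre-treatment differences were close to 0, and the day 14 difference had a 95% interval from -0.229 to 0.297. Over time Relb was lower by 0.40 in DMSO (log2 change -0.40, SE 0.134, limma adjusted p = 0.169) and by 0.28 in GSK (log2 change -0.28, SE 0.134, limma adjusted p = 0.212), and neither passed.

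Counted over the 10 genes, GSK against DMSO gave 0 calls on day 8, where 0.194% of kept genes passed, and 3 genes (Il6, Nfkbiz and Nfkb2) at an unadjusted p under 0.05 in limma, beside 16.3% of kept genes. Day 14 gave 2 calls beside a background of 10.8%, and the mean of both days gave 1 beside 14.5%. These shares are near the background for a set of 10 genes. In DMSO tumours 0 of the 10 passed between the days, beside 0.824% of kept genes, and 4 had an unadjusted limma p under 0.05, beside 15.4%. In GSK tumours 1 passed, beside 7.01%. The interaction passed for 0 of the 10 and for 0.00841% of kept genes, with 4 of the 10 (Tnf, Nfkbia, Nfkbiz and Nfkb2) at an unadjusted limma p under 0.05 beside 8.3%. Groups did not overlap for 3 of the 10 on day 8 (16.2% of kept genes), 1 on day 14 (22%), 3 between the days in DMSO (10.1%) and 4 in GSK (30.3%). The median log2 change of the 10 genes was 0.28 on day 8 and -0.04 on day 14, with 0.02 over all kept genes on both days. The comparisons by day and between the days share libraries.

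The genes around these 10 in the pathway were read from 6 lists with 74 genes, all of which were kept. None of the 74 passed on day 8, where the lowest limma adjusted p was 0.118. Counts at an unadjusted limma p under 0.05 went from 0 of 5 other Rel and I-kappa-B proteins to 8 of 22 induced targets, beside 16.3% of kept genes. None passed in the interaction either, where 0 to 2 genes of a list (2 of 22 induced targets) had an unadjusted limma p under 0.05, beside 8.3%. On day 14, among receptors and processing factors, Rhbdf2, which with the protease ADAM17 releases TNF from the cell surface, fell by 0.49 (log2 change -0.49, SE 0.141, limma adjusted p = 0.0381). The other 7 of 8 did not pass, and 3 of the 8 had an unadjusted limma p under 0.05. Of 20 receptor adaptors and kinases, 5 other Rel and I-kappa-B proteins, and 12 ubiquitin editors and other brakes, 0 passed on day 14, and 3, 2 and 3 had an unadjusted limma p under 0.05, beside 27.3% of kept genes. Their median changes were 0.05, -0.03 and 0.23.

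Over all kept genes, 5.1% rose and 5.73% fell on day 14. Of 7 cytokine mRNA decay factors, 1 rose and 1 fell, and 4 had an unadjusted limma p under 0.05, beside 27.3% of kept genes. Zfp36l1, which binds AU-rich elements and promotes decay, rose by 0.92 (SE 0.251, limma adjusted p = 0.0309). Elavl1, which encodes the stabilising AU-rich element binding protein HuR, fell by 0.58 (log2 change -0.58, SE 0.149, limma adjusted p = 0.0241). Group means of Zfp36l1 were 10.39 ± 0.50 in DMSO and 11.31 ± 0.14 in GSK (SD, n = 4 each), and those of Elavl1 were 9.60 ± 0.26 and 9.02 ± 0.23 (SD, n = 4 each).

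Of 22 induced targets, 2 rose and 2 fell on day 14, and 11 had an unadjusted limma p under 0.05, beside 27.3% of kept genes. Ccl4, a chemokine, fell by 1.10 (log2 change -1.10, SE 0.191, limma adjusted p = 0.00548). Il1b, which encodes the cytokine interleukin 1 beta, rose by 0.69 (SE 0.161, limma adjusted p = 0.0167). Bcl2a1b, a member of a family of near-identical survival genes among which reads may be split, rose by 0.91 (SE 0.21, limma adjusted p = 0.0161). Ier3, named after its value was seen, fell by 0.50 (log2 change -0.50, SE 0.136, limma adjusted p = 0.0306). The other 18 did not pass, and the median change of the list was 0.15.

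**Figure D3:**
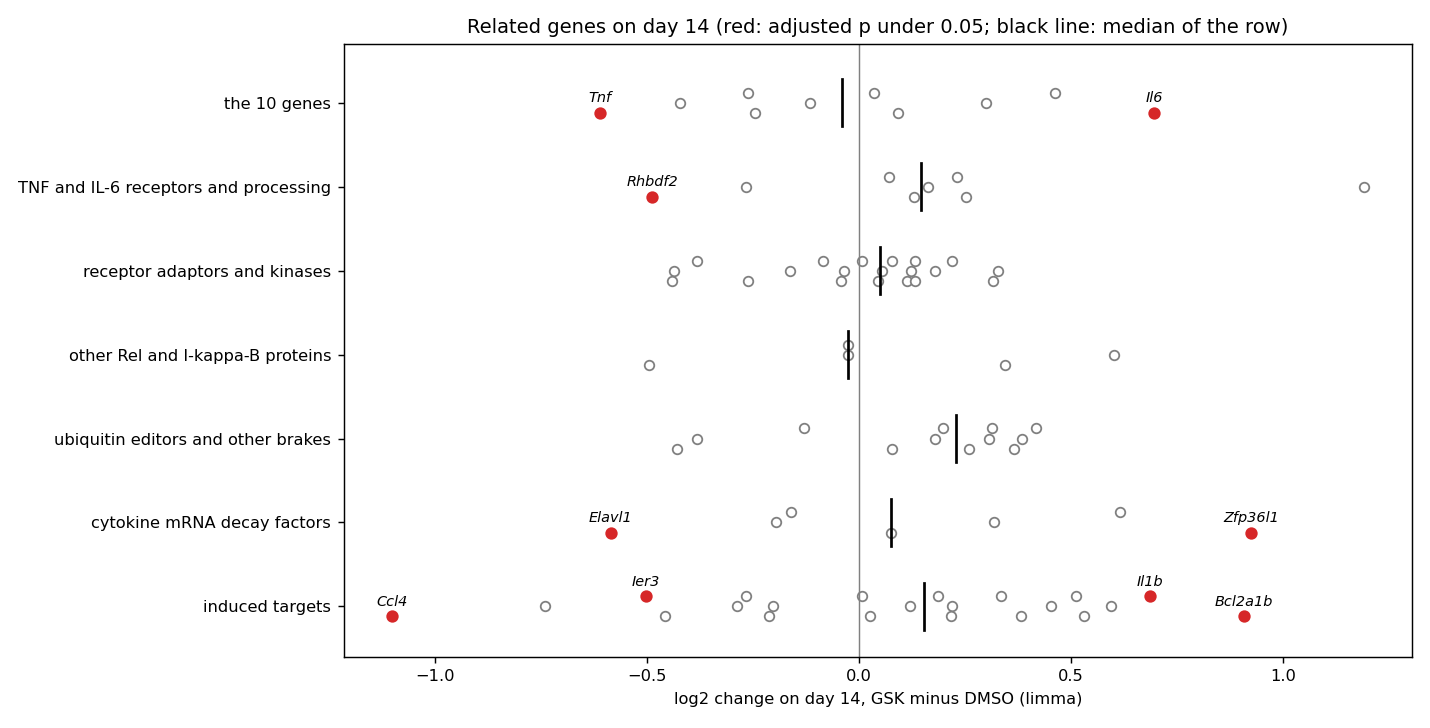
Log2 change on day 14, GSK minus DMSO (horizontal axis), of the 10 genes and of each gene in the 6 lists (rows); a black line marks the median of a row and red points had an adjusted p under 0.05. Called genes lie on both sides of 0, from Ccl4 at -1.10 to Zfp36l1 at 0.92, and the medians lie between -0.04 and 0.23.

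Averaged over both days, Socs3, the feedback inhibitor of IL-6 signalling, rose by 0.97 (SE 0.306, limma adjusted p = 0.0444) and the TNF receptor gene Tnfrsf1a fell by 0.32 (log2 change -0.32, SE 0.0884, limma adjusted p = 0.0269). These were 2 of the 8 genes of the receptor and processing list. Traf5, a TNF receptor adaptor, rose by 0.40 (limma adjusted p = 0.0402), 1 of 20. Otulin, a linear-ubiquitin protease, fell by 0.46 (log2 change -0.46, limma adjusted p = 0.0228), 1 of 12. Zfp36l1 rose by 0.79 and Elavl1 fell by 0.46 again (limma adjusted p = 0.0146 and 0.0152), comparisons that share their day 14 libraries with those above. Of the 22 targets 5 rose and 2 fell, beside 6.73% and 7.77% of kept genes, with Il1b at 0.61, the chemokine gene Cxcl2 at 0.60 and Ccl4 at -0.84 (limma adjusted p = 0.00589, 0.0183 and 0.0026).

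Between the days, Il6st, which encodes the gp130 chain, fell by 0.77 in DMSO tumours and by 0.78 in GSK tumours (log2 changes -0.77 and -0.78, limma adjusted p = 0.0324 and 0.0109). In GSK tumours, where 3.05% of kept genes rose and 3.95% fell, Rela, the gene of the p65 subunit, fell by 0.70 (log2 change -0.70, SE 0.194, limma adjusted p = 0.0407), and N4bp1, a brake on NF-kB signalling, fell by 1.05 (log2 change -1.05, SE 0.188, limma adjusted p = 0.00661). Zc3h12a, which encodes the endonuclease Regnase-1 that cuts Il6 mRNA, rose by 0.54 (SE 0.156, limma adjusted p = 0.0469). Among targets Cxcl1 fell by 1.01, Ccl4 fell by 1.05 and Bcl2a1b rose by 1.05 (limma adjusted p = 0.0314, 0.011 and 0.0156). Only Il6st of the 74 passed in DMSO tumours.

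Markers of other cells moved beside some of these results. Between the days in GSK tumours, where Tnf fell, 5 of 7 kept 4T1 epithelial markers passed as lower (median log2 change -1.70), beside 3.95% of kept genes. Their summed unlogged level was 1720 to 3670 on day 8 and 1150 to 1640 on day 14. In DMSO tumours all 7 were also lower (median -0.60). There 0 passed, and 5 had an unadjusted limma p under 0.05, beside 15.4% of kept genes. The sums there were 2230 to 2800 on day 8 and 1220 to 1960 on day 14. Cdh1, at log2 values of 9.9 to 10.7 a large part of these sums, changed by -0.0171 in GSK tumours. In GSK tumours the endothelial marker Pecam1 fell by 0.71 and the dendritic cell marker Siglech by 0.54 (log2 changes -0.71 and -0.54). These were 1 of 5 and 1 of 4 kept markers, and the macrophage gene Lyz2 rose by 1.26. Of the 12 immediate-early genes Ier2 rose by 0.88 and Hspa1a fell by 1.16 (log2 change -1.16). On day 14 Tnf was lower and Il6 higher in GSK. There Adgre1, which encodes F4/80, rose by 0.70, Cd68 rose by 1.04, Lyz2 rose by 0.82 and Itgam fell by 0.59 (log2 change -0.59). These were 4 of 8 macrophage markers, beside 10.8% of kept genes, and no marker of another cell type passed. Over both days, where Il6 was higher in GSK, Krt14 rose by 0.68 and the dendritic cell marker Ccr7 by 0.44 (limma adjusted p = 0.0143 and 0.0413). They were 1 of 7 kept epithelial and 1 of 4 kept dendritic cell markers, beside 6.73% of kept genes that rose. The list medians were 0.0147 and -0.0149. Pecam1 fell by 0.42 (log2 change -0.42, limma adjusted p = 0.0308), 1 of 5 endothelial markers, with a list median of 0.05. Of 8 macrophage markers, Adgre1 rose by 0.48 and Itgam fell by 0.76 (limma adjusted p = 0.0489 and 0.00233). On day 8 Krt14 rose by 1.37 (limma adjusted p = 0.0361), 1 of 7 kept epithelial markers, beside 0.194% of kept genes. The list median was 0.44. Summed macrophage markers on day 14 were 15500 to 25200 in DMSO and 21700 to 31200 in GSK. Neutrophil markers summed to 1220 to 1960 in DMSO and 1520 to 1620 in GSK on day 8. The day 14 sums were 2160 to 2610 in DMSO and 1300 to 2460 in GSK. Of 7 neutrophil markers 5 were kept, and 0 passed in any comparison. Between the days in DMSO tumours 3 of the 5 had an unadjusted limma p under 0.05, beside 15.4% of kept genes. Retnlg was the highest of them, at log2 values of 9.6 to 11.2, while S100a8 lay between 3.67 and 4.35. T and NK cell markers summed to 25.9 to 42.4 in all libraries, of which 1 of 7, Cd3e, was kept (log2 values of 4.34 to 5.2), while Cd3g lay between -0.08 and 0.07 and Trac between 0.16 and 0.31. Of 6 fibroblast markers 3 were kept, Col1a1 at 5.17 to 6.43, Col1a2 at 4.39 to 5.02 and Col3a1 at 4.78 to 5.65, while Dcn and Pdgfra lay below 1.3. The part of these markers in the results was not tested.

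The 10 genes did not move as 1 block. Over the 14 libraries Tnf correlated with Relb (r = 0.744, permutation p = 0.00274, adjusted p = 0.0247 over 9 genes; rho = 0.745, adjusted p = 0.028), with Nfkbia (r = 0.644, permutation p = 0.0131, adjusted p = 0.0461; rho = 0.662, adjusted p = 0.0521) and with Nfkb1 (r = 0.612, permutation p = 0.0154, adjusted p = 0.0461; rho = 0.635, adjusted p = 0.0521). The other 6 did not pass, and r lay between -0.438 with Rel and 0.469 with Il6. After subtraction of group means r was lower with Relb (0.413) and Nfkbia (0.162) and higher with Nfkb1 (0.707), and none passed (permutation, adjusted p = 0.663, 0.893 and 0.295). Without the 2 libraries farthest from the median of Tnf, r was 0.768 with Relb (permutation, adjusted p = 0.0392), 0.699 with Nfkbia (adjusted p = 0.0525) and 0.588 with Nfkb1 (adjusted p = 0.106). With quantile normalisation r fell to 0.263 for Nfkbia.

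**Figure D4:**
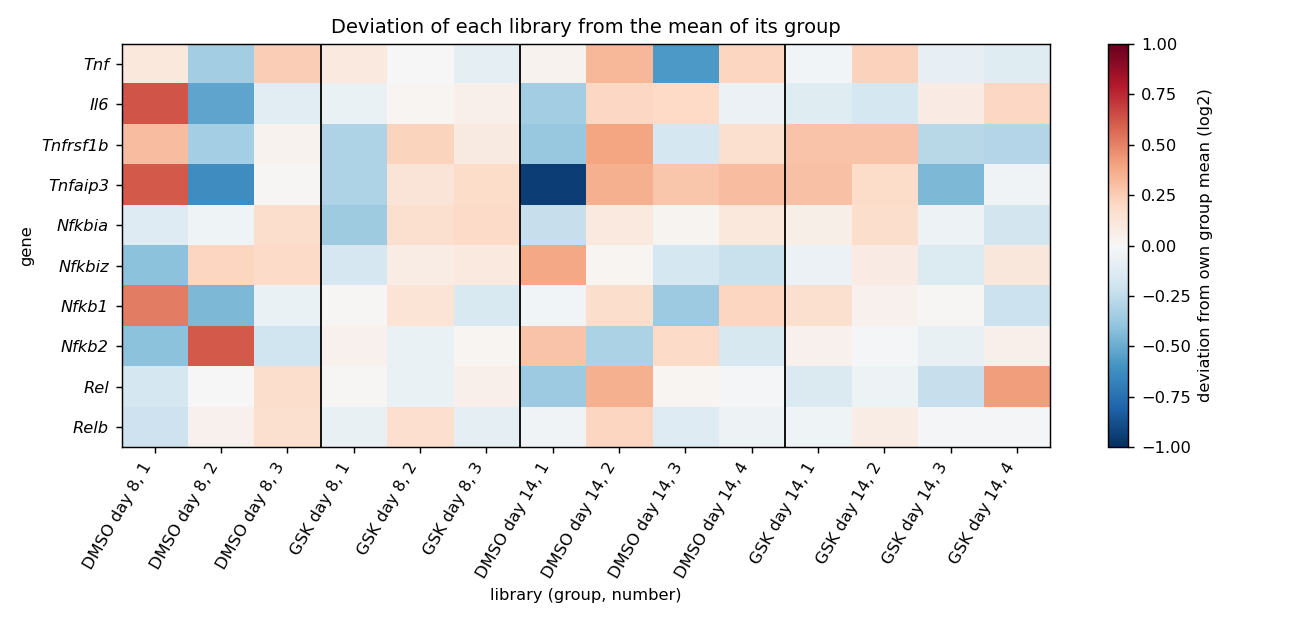
Deviation of each library (columns, by group and number) from the mean of its own group, on the log2 scale (colour), for the 10 genes (rows). The deepest blue cell is Tnfaip3 in DMSO day 14 library 1, at 6.41 in a group with a mean of 7.35, and the pale Il6 cells of the GSK day 8 libraries (SD 0.059) stand beside deep ones in DMSO day 8 (SD 0.58).

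Among 7977 kept genes with an unlogged mean of at least 50, those whose values followed Tnf most closely over the 14 libraries were S100a6 (r = 0.951), Inhba (0.948), Gm44292 (0.935), Mmp9 (0.927) and Slfn2 (0.926). After subtraction of group means Inhba, which encodes a subunit of activin A, still had r = 0.892, and the other 4 had values from 0.577 to 0.708. Among the 5 closest to Il6 were Ifi202b (0.826), Enpp2 (0.825) and Ccdc80 (0.82). With group means subtracted these fell to 0.718, 0.341 and 0.54. For the mean of the 10 standardised genes they were Malt1 (0.844), which acts upstream of NF-kB, Cxcl1 (0.81), Ranbp2 (0.756), Rngtt (0.755) and Zmynd8 (0.748). These correlations describe the libraries, which share groups and the split in the ribosomal RNA locus.

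**Figure D5:**
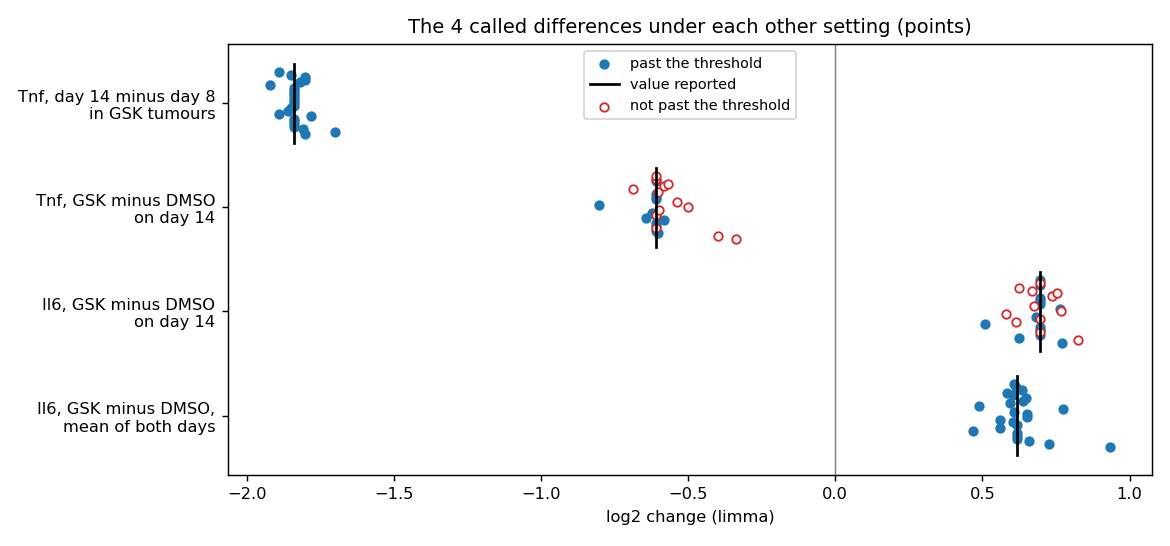
Log2 change (horizontal axis) of the 4 called differences of Tnf and Il6 under each other setting or with 1 library left out (points); black lines are the values reported and open red points did not pass the threshold. The GSK fall of Tnf between the days and the Il6 difference over both days passed in every setting run, and the day 14 differences did not pass in many.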

How the data were processed

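RNA-seq of F4/80-positive tumour macrophages was used as 1 table of log2-scale values that the authors deposited, with 24556 mouse genes and 14 libraries. Per the submitters' processing notes, Bowtie2, RSEM 1.2.29 and DESeq2 1.12.4 were used with the builds mm10 and GRCh38, and the transformation behind the values is not given in the sources used here. A transformation that shrinks low genes would understate the changes of Il6. No depth or counting interval can be given. Symbols were taken by Ensembl identifier from GENCODE M21 (24470 identifiers matched, 86 did not), and promoters from RefSeq (GRCm38.p6).

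Genes with an unlogged value of at least 10 (log2 3.32) in at least 3 libraries were kept. limma 3.58.1 (R 4.3.3) fitted 4 group means with an empirical Bayes trend to all 14 libraries. P-values were two-sided and were adjusted by Benjamini-Hochberg within each comparison over 11886 kept genes (threshold 0.05). SE is that of the fit. The fit was tested on simulated data. The 10 genes, the lists and the tests were chosen with earlier results of these data known. Beside the 10 genes, up to 3 called genes per list and comparison with the smallest adjusted p are named, and the 5 genes most like Tnf, Il6 or the mean, of which 2 are not reported here. Correlations used 100000 permutations. Alternatives were other filters, a pseudocount, scalings, variance models, the replicate block, the kind of library and leaving out each library.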

Additional observations from a re-analysis of the deposited data

Results flagged for a closer look

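Of 20 groups of 4 libraries examined, 1 held a library far from the others, and chance alone gives about 1 in 20. Tnfaip3 in DMSO day 14 library 1 had a log2 value of 6.41, while the other 3 libraries of that group lay between 7.63 and 7.71, and the gap made up 0.937 of the range of the group. The same library had the lowest summed level of the immediate-early genes in its group (19300), and this was not tested further.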

How the results depend on the processing

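The fall of Tnf between the days in GSK tumours and the rise of Il6 over both days passed with each of the 14 libraries left out and in the other settings run, which were 11 and 10. The number of the 10 genes past the threshold on day 14, 2 as reported, was 0 with no filter, 0 with the replicate block, 0 with the kind of library as a term, 1 with quantile normalisation, 1 among the AY036118-high libraries alone, and 0 to 2 with 1 library left out. For the mean of both days (1 reported) it was 2 with a minimum of 50, quantile normalisation, quality weights or the AY036118-high libraries alone (with 1 DMSO day 8 library), and 1 to 3 with 1 library left out. On day 8 (0 reported) it was 1 with quality weights and 0 to 1 with 1 library left out. Between the days it was 6 with quality weights, 3 with only the groups compared, 2 among the AY036118-high libraries and 1 to 2 with 1 library left out in GSK tumours (1 reported), and 1 with the kind of library as a term and 0 to 2 with 1 library left out in DMSO tumours (0 reported). The cause of these shifts was not tested. Under the replicate block Tnf and Il6 on day 14 had limma adjusted p of 0.0669 and 0.0642, and the other 2 calls of the 10 genes were not lost. All kept genes were fitted in that setting, and 1087 of 11886 passed on day 14. Deviations of same-numbered libraries had r from -0.344 to 0.515, over 0.1 in 5 of 19 pairs. For pairs with different numbers r lay between -0.518 and 0.377, over 0.1 in 14 of 54. With 3 or 4 libraries in a group, these values cannot show whether the numbers pair the libraries. The number of genes correlated with Tnf (3 reported) was 0 with group means subtracted, 1 without the 2 farthest libraries and 1 with quantile normalisation, and r turned sign with group means subtracted for Tnfaip3 (0.225), Nfkb2 (-0.679) and Rel (0.105). No called difference changed sign. The sign of differences that did not pass turned in 54 cases, none past the threshold (log2 changes; "mean" is that of both days, "time" is day 14 minus day 8): with unweighted TMM mean (Nfkbia -0.00579); with library quality weights day 8 (Tnfrsf1b 0.0575), mean (Relb 0.00347), interaction (Il6 -0.0689, Tnfaip3 -0.20, Nfkb1 -0.17), GSK time (Nfkbiz -0.00896); with the kind of library as a term day 14 (Nfkbiz -0.0325), mean (Tnf 0.0829, Nfkbia -0.0121), GSK time (Nfkbiz -0.0172); with the AY036118-high libraries alone day 8 (Tnfrsf1b 0.33, Nfkb1 0.18, Nfkb2 -0.0923), day 14 (Nfkbiz -0.0111), mean (Tnf 0.19, Tnfrsf1b 0.0928, Nfkb1 0.0658, Nfkb2 -0.22, Relb 0.0116), interaction (Il6 -0.33, Tnfaip3 -0.26, Nfkb1 -0.23), DMSO time (Nfkbia -0.0187, Nfkb2 -0.17), GSK time (Nfkbiz -0.0161). With 1 library left out, ranges that crossed 0 were mean (Nfkbia -0.0413 to 0.10, Relb -0.0769 to 0.0145), interaction (Il6 -0.16 to 0.42, Tnfaip3 -0.12 to 0.50, Nfkb1 -0.24 to 0.24, Rel -0.12 to 0.13), DMSO time (Nfkbia -0.0282 to 0.13, Nfkb2 -0.000728 to 0.51, Tnfrsf1b -0.0438 to 0.28, Tnfaip3 -0.0843 to 0.54), day 8 (Tnfaip3 -0.0392 to 0.58), GSK time (Nfkbiz -0.0161 to 0.11), day 14 (Relb -0.00852 to 0.10). Rescaling moved the median of all genes by 0.03 at most. The depth is unknown, so how far it limits Il6, the lowest gene of the set, cannot be given.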
